A study of Mus musculus with 8 samples.

Results

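The genes examined here flank, on mouse chromosome 9, a stretch of DNA that the study's coverage plots show as missing from its WT cells. They were taken as all genes of the deposited RNA-seq table that start inside a 2 Mb window of chromosome 9 (GRCm38) around Nicn1 and Tcta, leaving out Rhoa, Amt, Lamb2 and Col7a1. The first of them starts at 107300380 and the last at 109095389. There were 83 such genes of 19429 in the table: 47 that start on the centromeric side of Nicn1, 34 that start on the telomeric side of Tcta, and Nicn1 and Tcta themselves.

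LF2 cells, a mouse embryonic stem cell line grown with LIF and serum, were the source of the RNA. Both groups carried a C-terminal FLAG tag on TET1, a dioxygenase that oxidises 5-methylcytosine, followed by a fluorescent protein. WT cells kept wild-type TET1 and came as lines 2 and 5, while D2018A cells carried an aspartate-to-alanine change that weakens binding of TET1 to the O-GlcNAc transferase OGT and came as lines 7 and 8. Each line was grown from a single edited cell. With 2 lines per group and 2 technical replicates of each line, the labels describe 4 libraries per group. The WT lines are limited as controls at this locus, because the study's methods describe a deletion in WT cells that the D2018A cells lack. Its coverage plots place that deletion over Nicn1, Amt and Tcta. The study also examined cells with wild-type TET1 and an intact copy of the region, by qPCR and mass spectrometry. From these it attributes its differences in expression and 5-methylcytosine to D2018A and not to the deletion, which was not examined here.

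The table gives 1 mean per gene over all libraries of the authors' fit and no value for a single library. Which libraries entered was not stated. The smallest means in the table fell on 12 values shared by 38 to 123 genes each, as 1 read in 1 of 12 libraries would give, which is 4 libraries more than the 8 described. The size factors read from these values ranged from 0.726 to 1.47, a 2.03-fold range of depth, and the means of all genes summed to 10937569 normalised counts. The mean may thus include libraries beyond those described. The other value columns hold the authors' own comparison of the genotypes and were not used. The levels below are therefore pooled over genotypes, without standard deviation or number of replicates, and no difference between genes or flanks was tested. Whether flank genes differed between WT and D2018A, and how far from Nicn1 and Tcta such a difference reached, was not analysed here. For the same reason the deletion could not be checked against these values.

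This stretch of the mouse genome matches a segment of the short arm of a human chromosome that is often lost in lung and other cancers. It holds genes first studied as candidate tumour suppressors, among them Rassf1, Tusc2, Nprl2, Hyal1, Hyal2, Sema3b and Sema3f. Loss of a DNA segment removes the genes inside it and can also bring the neighbours under new regulatory sequences or separate them from old ones, which is why the genes on both sides of a deletion are of interest.

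The promoters of Nicn1 and Tcta and of the nearest listed members on either side, Dag1 and Gpx1, are shown. Rhoa, which was left out, lies between Tcta and Gpx1, so Gpx1 is not the nearest gene on that side. Promoters are of interest here because TET1 binds DNA through a domain that recognises unmethylated CpG. Each sequence is the RefSeq window of GRCm38.p6 from 250 bases before to 50 bases after an annotated start, written 5′ to 3′ on the strand of the gene, with every CpG in capitals. The Dag1 window is chr9:108263909-108264208 (minus strand), the Nicn1 window chr9:108290193-108290492 (plus strand), the Tcta window chr9:108306110-108306409 (minus strand) and the Gpx1 window chr9:108338830-108339129 (plus strand).
Dag1: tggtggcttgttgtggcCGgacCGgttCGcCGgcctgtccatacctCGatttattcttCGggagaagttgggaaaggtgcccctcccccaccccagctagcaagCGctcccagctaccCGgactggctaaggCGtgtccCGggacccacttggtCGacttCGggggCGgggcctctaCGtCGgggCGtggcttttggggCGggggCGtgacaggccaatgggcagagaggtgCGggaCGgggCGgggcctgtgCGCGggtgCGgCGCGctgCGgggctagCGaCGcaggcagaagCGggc
Nicn1: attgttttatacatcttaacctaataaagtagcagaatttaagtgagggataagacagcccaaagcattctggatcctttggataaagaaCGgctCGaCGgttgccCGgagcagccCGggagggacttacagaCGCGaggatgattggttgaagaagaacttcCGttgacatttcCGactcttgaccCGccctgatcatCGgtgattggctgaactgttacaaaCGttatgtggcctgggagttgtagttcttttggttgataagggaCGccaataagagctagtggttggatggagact
Tcta: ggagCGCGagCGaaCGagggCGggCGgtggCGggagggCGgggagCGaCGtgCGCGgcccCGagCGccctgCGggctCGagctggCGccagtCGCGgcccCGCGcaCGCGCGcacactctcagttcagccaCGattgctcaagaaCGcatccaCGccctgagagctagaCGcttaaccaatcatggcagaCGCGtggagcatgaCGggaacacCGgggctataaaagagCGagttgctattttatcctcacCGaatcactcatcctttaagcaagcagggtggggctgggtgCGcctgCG
Gpx1: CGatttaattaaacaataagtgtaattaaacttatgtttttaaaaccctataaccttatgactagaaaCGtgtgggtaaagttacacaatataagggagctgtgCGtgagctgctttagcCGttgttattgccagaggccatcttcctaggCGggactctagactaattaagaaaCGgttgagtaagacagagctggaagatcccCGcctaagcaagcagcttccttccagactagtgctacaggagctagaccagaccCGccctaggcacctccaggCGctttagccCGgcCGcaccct

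The 4 windows differed in CpG content. The Tcta window held 36 CpG and that of Dag1 30, against 13 for Nicn1 and 11 for Gpx1. Relative to the number expected from their C and G content, the ratio was 1.12 for Tcta, 0.848 for Dag1, 0.829 for Nicn1 and 0.665 for Gpx1. All 4 thus lay above 0.6, the ratio used alone here to class promoters as CpG-rich. No minimum C and G content was required. The annotated start used for Gpx1 lay 177 bases from the start of the gene in the deposited table.

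Nicn1 and Tcta lie inside the span that the coverage plots show as missing. Nicn1 (108290429 to 108296498, plus strand), which encodes nicolin 1, a subunit of a tubulin-modifying complex, had a mean normalised count of 291.2, a number of reads made comparable across libraries by dividing out their depth. Tcta (108302958 to 108306160, minus strand), named after a T cell leukemia translocation, had 20.7. Per kilobase of exon, the scale on which levels of different genes are set side by side here, Nicn1 reached 102.7 and Tcta 11.3. These corresponded to percentiles 77.3 and 45.0 among the 19342 genes with a known exon length. How WT and D2018A libraries shared in either mean cannot be told apart from a pooled value. The span of Tcta shares 32 bases with that of Rhoa on the opposite strand.

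The span from the start of Nicn1 to the end of Tcta covers 15.7 kb, which is not the size of the deletion. The study gives a larger deletion, whose ends were not located here. On the centromeric side 26.5 kb separate Nicn1 from Dag1, and on the telomeric side 32.7 kb separate Tcta from Gpx1, a stretch in which Rhoa lies. Dag1 and Gpx1 were, with Gnai2, the members with the highest levels per kilobase. Dag1 (108204634 to 108263958), which encodes dystroglycan, the receptor that anchors cells to laminin, had a mean of 6177 and a level per kilobase of 971.7, at percentile 97.9. Gpx1 (108338903 to 108340343), a selenium-dependent glutathione peroxidase that removes hydrogen peroxide, had a mean of 10151 and a level per kilobase of 7044, the highest of all members and at percentile 99.9 of all genes.

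**Figure D1:**
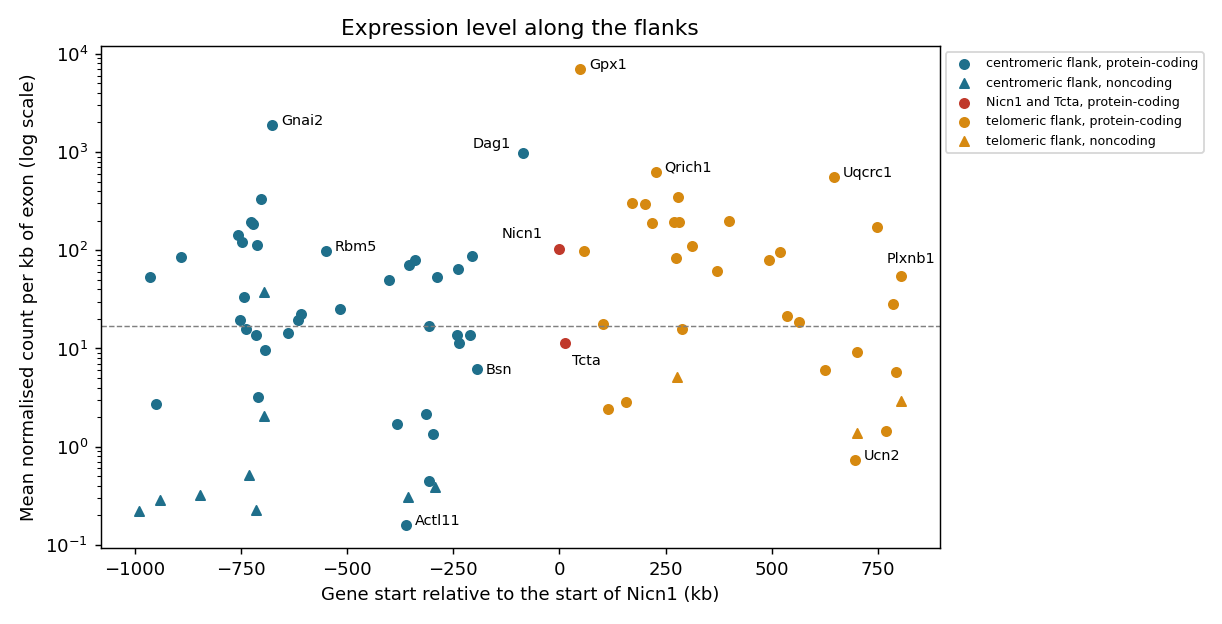
Level of 82 members, Nicn1 and Tcta included, against the distance of their start from that of Nicn1. Each point is 1 gene, given as the authors' mean normalised count per kilobase of exon on a log scale, with circles for protein-coding and triangles for noncoding genes and a dashed line at 17.1, the median of all genes. Gpx1 (7044), Gnai2 (1879) and Dag1 (971.7) stand highest and Actl11 (0.158) lowest. Gm42641, without a known exon length, is not drawn.

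Beyond Dag1, the next 9 members on the centromeric side had levels per kilobase of at most 88.1. Bsn, which encodes the presynaptic scaffold bassoon, had a mean of 98.4 over 15.9 kb of exon, or 6.17 per kilobase. Apeh, a peptidase that releases acylated amino acids, had a mean of 498.0 and 88.1 per kilobase, and Mst1, the secreted ligand macrophage-stimulating protein, had 31.2 and 13.8. Rnf123, a ubiquitin ligase, had 430.8 and 63.8 per kilobase, while Amigo3, a leucine-rich adhesion protein, and Gmppb, which makes the GDP-mannose used to glycosylate proteins such as dystroglycan, had means of 29.0 and 38.3, or 11.4 and 13.8 per kilobase. Ip6k1, an inositol hexakisphosphate kinase, had a mean of 349.8 and 53.9 per kilobase. The next genes in this direction, the antisense RNA 4930535L15Rik and the cadherin-related gene Cdhr4, had means of 0.208 and 4.17. The first 8 members on this side all had a mean of at least 10, the minimum used here for an expressed gene, and these 2 did not.

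On the telomeric side, 7 of the 10 nearest members, Gpx1 included, had more than 88.1 per kilobase. Over all genes, percentile 75 lay at 88.8 per kilobase. The cut of 88.1 was set by the centromeric values, where of the 10 nearest members only Dag1 exceeded it. The contrast between the sides was thus partly fixed by the choice of cut, and it was not tested. Usp4, a deubiquitinase next to Gpx1, had a mean of 855.3 and 99.1 per kilobase. The following 3 genes had means of 21.9 for 1700102P08Rik, 6.93 for Ccdc36, which acts in meiotic recombination, and 24.2 for the kelch protein gene Klhdc8b, and between 2.40 and 17.7 per kilobase. Lamb2 (328.7), which lies between Ccdc71 and Usp19, was left out. The next 5 members had a mean of at least 595.6: Ccdc71 (982.1), the deubiquitinase Usp19 (2071), the glutaminyl-tRNA synthetase gene Qars (1246), Qrich1 (4964) and Impdh2 (595.6). Impdh2 encodes the enzyme that sets the rate of guanine nucleotide synthesis. Per kilobase these 5 ranged from 189.6 for Qars to 626.9 for Qrich1, at percentiles 86.1 and 96.2 of all genes.

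Over their whole length, 33 of 47 genes of the centromeric flank (70.2%) and 26 of 34 of the telomeric flank (76.5%) had a mean of at least 10. These shares lay near the 66.3% of all genes and the 66.0% of chromosome 9 genes outside the window. The median mean normalised count was 58.9 in the centromeric and 277.4 in the telomeric flank, and the medians per kilobase of exon were 17.0 over 47 genes and 60.9 over 33. Over all genes the medians were 63.2 and 17.1, and over the 999 chromosome 9 genes outside the window they were 61.8 and 16.1. The medians of the centromeric flank thus lay near those of the whole table and the medians of the telomeric flank above them. Genes are not replicates, and this difference was not tested.

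**Figure D2:**
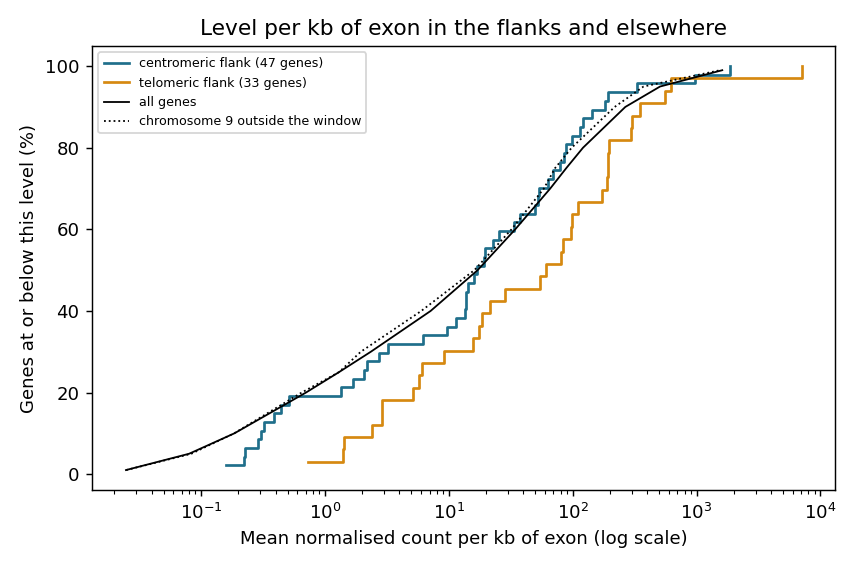
Cumulative share of genes by level per kilobase of exon (log scale) in the centromeric flank (47 genes), the telomeric flank (33 genes), the remaining genes of chromosome 9 (dotted) and all genes of the table (solid black, drawn from percentile 1 to 99). The curve of the telomeric flank lies to the right of the others over most of its range, with a median of 60.9 against 17.0 for the centromeric flank and 17.1 for all genes.

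The level did not follow distance in 1 direction on the centromeric side. Among the 8 genes whose nearer end lay within 250 kb of Nicn1 the median per kilobase was 33.9, among the 12 between 250 and 500 kb it was 1.93, among the 20 between 500 and 750 kb it was 21.1, and among the 7 farthest it was 2.74. On the telomeric side the median was 189.6 for the 9 genes within 250 kb of Tcta, 97.4 for the 10 between 250 and 500 kb, 18.5 for the 9 between 500 and 750 kb and 5.72 for those beyond. All 8 groups are small, and they are given as a description of gene order.

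The fixed groups of genes were chosen for this stretch, so how many of their genes lie in the window is not a result. All 7 members of the list named axon guidance ligands and receptors had a mean of at least 10. That list also holds the synaptic gene Bsn and the pseudokinase gene Camkv, which do not encode guidance ligands or receptors. Such counts are read against the background of expressed genes, since 73.2% of all protein-coding genes had a mean of at least 10 and 50.7% one of at least 100, and among the protein-coding members the shares were 84.5% and 56.3%. Nothing particular to a group is read from them. The secreted semaphorins were modest, with 45.8 for Sema3b and 117.4 for Sema3f, while the semaphorin receptor gene Plxnb1 had 525.8 and Celsr3, a cadherin of planar cell polarity and axon growth, had 259.6. Per kilobase these were 9.60, 22.6, 54.8 and 21.5. Camkv, a pseudokinase related to calmodulin kinases, had 263.4 and is counted again among the signalling genes.

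Of the 7 signalling genes in the window, 6 had a mean of at least 10, and Mst1r was the exception. Gnai2, the inhibitory G protein subunit that lowers cyclic AMP, had a mean of 7102 and 1879 per kilobase, whereas Gnat1, the G protein subunit of rod photoreceptors, had 58.9 and 19.4. Prkar2a, a regulatory subunit of protein kinase A, had a mean of 1260 and 197.5 per kilobase. The receptor gene Mst1r, whose product binds the ligand encoded by Mst1, had 8.45 against 31.2 for the ligand, or 1.69 against 13.8 per kilobase.

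All 5 members of the list named RNA binding and translation had a mean of at least 100, a level that 50.7% of all protein-coding genes reached. They were the splicing regulators Rbm5 (1533) and Rbm6 (352.3), Qars, Wdr6 (810.0) and Nat6 (359.2), which encodes the actin acetyltransferase now named Naa80 and does not itself act in translation. Without Nat6 the count was 4 of 4. All 7 members of the ubiquitin list had a mean of at least 10 and 5 of at least 100, beside 84.5% and 56.3% of protein-coding members. The ligases Traip, which acts at stalled replication forks, and Arih2 had 500.5 and 850.1. Uba7, the activating enzyme for the interferon-induced modifier ISG15, had 14.6.

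All 8 members of the list named metabolism and mitochondria had a mean of at least 10 and 6 of at least 100, beside the same 84.5% and 56.3%. The list includes Nicn1, which acts in tubulin modification and lies in the missing interval, and without it the counts were 7 and 5 of 7. Beside Gpx1 and Impdh2 these included Uqcrc1, a core subunit of respiratory complex III (2284), and Slc25a20, the mitochondrial carnitine carrier (295.2), while the glycolytic regulator Pfkfb4 had 45.0. Of 4 cell cycle, DNA repair and chromatin genes, Qrich1 alone passed 100. Rassf1, a tumour suppressor of the Ras-association family, had 92.9 and Atrip, the partner of the checkpoint kinase ATR, had 10.2. Beside Rassf1, with 15.9 per kilobase, lie Tusc2, a candidate tumour suppressor, with 192.3, and Nprl2, part of a complex that holds back mTORC1 when amino acids are scarce, with 121.2. The 3 hyaluronidase genes lie close together and had unequal levels, with 603.2 for Hyal2, 51.2 for Hyal1 and 6.26 for Hyal3, or 183.2, 13.6 and 3.21 per kilobase.

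Across all groups, 9 of 83 members had a mean of at least 1000, beside 2414 of all 19429 genes. The 9 were Gnai2, Rbm5 and Dag1 in the centromeric and Gpx1, Usp19, Qars, Qrich1, Prkar2a and Uqcrc1 in the telomeric flank. At the other end, 72 members had a mean of at least 1, beside 16187 of all 19429 genes, and the other 11 members lay below 1.

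By biotype, 71 members were protein-coding, 7 antisense RNAs and 5 lincRNAs. Of the protein-coding members 60 (84.5%) had a mean of at least 10, against 73.2% of all protein-coding genes in the table. Of the 12 noncoding members 1, the lincRNA Gm38150 with 17.1, did so. It lies within the span of Lsmem2 (0.761) on the opposite strand. The share was 8.33%, against 18.8% of all noncoding genes. The 4 antisense RNAs Gm17041, Gm17118, Gm16343 and Gm37974 had means between 0.0676 and 0.109, each equal to a single read in a single library. The lincRNA 4833445I07Rik (108567533 to 108569174, plus strand), with a mean of 8.39, spans the miRNAs miR-191 and miR-425. Their mature 5p sequences are shown because they lie inside a transcript that was measured, whereas the miRNAs themselves were not measured. They are RefSeq sequences at chr9:108568325-108568347 and chr9:108568789-108568811 of GRCm38.p6, with the seed (bases 2 to 8) in capitals, and their seeds differ.
miR-191-5p: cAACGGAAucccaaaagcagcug
miR-425-5p: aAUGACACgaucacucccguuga

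The window is dense in genes. It held 87 listed genes, the 4 left out included, over 2 Mb, or 43.5 per Mb against 8.94 per Mb over chromosome 9. When chromosome 9 was divided into 62 windows of 2 Mb aligned with this one, none held more genes, and the median was 14. This crowding bears on the counts, since 40 of the 83 members overlap another listed gene. Of 28 overlapping pairs in the window, 22 lie on opposite strands and 6 on the same strand. Whether the counting used strand is not given in the sources used here, so reads in the shared stretches are uncertain. Among the opposite-strand pairs, Rnf123 (430.8) covers the whole of Amigo3 (29.0), sharing 2543 bases, and shares 2911 bases with Mst1 (31.2). Klhdc8b (24.2) shares 1055 bases with Ccdc71 (982.1), and Dalrd3 (854.8) shares 464 with Wdr6 (810.0). On the same strand, Hyal3 shares 3233 bases with Nat6 and 893 with Hyal1, so the split of reads among these 3 is uncertain as well.

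Finally, promoter CpG content was set beside the level. A promoter window was matched by symbol for 64 of the 83 members. The ratio of observed to expected CpG was at least 0.6 in 42 of them (65.6%), which is near the 60.3% of the 14087 genes of the table with a matched window. Over all 32817 promoter windows of RefSeq, those of genes not listed in the table included, the share was 35.8%. The median number of the letters CG in the window, which read the same on both strands, was 18.5 in members, 18 in the listed genes and 7 over all RefSeq windows. Of the 42 CpG-rich members 40 had a mean of at least 10, and the other two were Ccdc51 (8.72) and 4930535L15Rik (0.208). Of the 22 CpG-poor members 13 did so. The median level per kilobase was 82.3 for CpG-rich and 8.73 for CpG-poor members. Over all 14087 genes with a window and a listed mean, 86.9% of CpG-rich and 46.4% of CpG-poor genes had a mean of at least 10, with medians of 49.6 and 2.67 per kilobase. Across the 64 members, which share libraries and overlap in places, Spearman's rho between the ratio and the level per kilobase was 0.393, and it was 0.458 over the 14076 listed genes with a window and a known exon length.

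**Figure D3:**
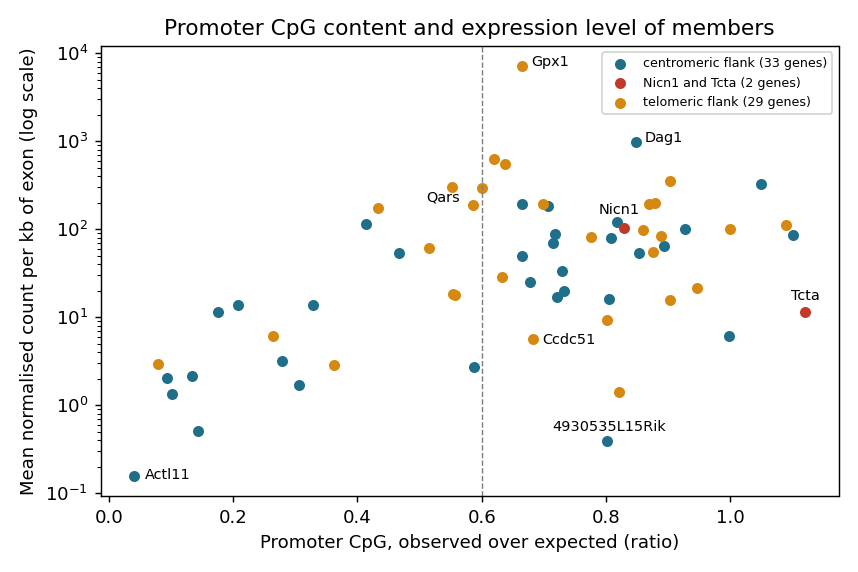
Ratio of observed to expected CpG in the promoter window against the level per kilobase of exon (log scale) for the 64 members with a window, coloured by flank, with a dashed line at 0.6. Most members below 10 per kilobase lie left of the line, while Tcta, at the highest ratio (1.12), had 11.3 per kilobase. The Tcta window also holds the start of Rhoa on the opposite strand, and Tcta lies in the span missing from WT cells.

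Among CpG-poor members, Qars (ratio 0.586), Ccdc71 (0.552) and Shisa5 (0.433), a regulator of cell death at the endoplasmic reticulum, had the highest means, at 1246, 982.1 and 566.3. The lowest was the actin-related Actl11, with a mean of 0.629 and 1 CpG in its window.

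Markers of embryonic stem cells were present in the pooled means. All 10 pluripotency markers were listed, with means from 977.2 for Zfp42 to 23079 for Esrrb. Of 7 fibroblast markers 4 were listed, with Col1a2 at 0.689 and Col3a1 at 0.093, while Col1a1 had 114.7 and Thy1 194.1.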

How the data were processed

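Counts per gene were obtained by the authors with STAR 2.5.3a on GRCm38.p6, from single-end reads of RNA depleted of ribosomal RNA, and normalised with DESeq2 1.20.0. The deposited signal used here is the mean of these normalised counts over all libraries of the authors' fit, which has 1 value per gene. A further 5 columns of the deposited table hold the authors' comparison of D2018A with WT, namely log2 fold changes, their standard errors, a statistic and p-values. They were not used. The planned edgeR test of D2018A against WT needs counts per library and was not run.

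Means were divided by the union of exon lengths from GENCODE vM21, in which 82 of 83 members were found, 81 with the same start and stop. Genes with a mean of at least 10 were taken as expressed. Libraries behind the mean were counted as values shared by at least 30 genes that are not sums of lower ones, a step tested on simulated data. Promoter windows and miRNAs are those of RefSeq (GRCm38.p6).

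Members, gene groups and measures were chosen with earlier results of these data known. Named genes were Nicn1 and Tcta, the 10 nearest on each side, the 10 highest means and members of the fixed groups. Other tumour suppressor candidates, genes named for an overlap, a biotype or their promoter, and the promoter measures, were chosen after their values were seen. No per-sample column was available for use. Python 3.11.15, pandas 2.3.3 and matplotlib 3.10.9 were used.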

Additional observations from a re-analysis of the deposited data

How the results depend on the processing

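No paired analysis was possible because the values used are 1 pooled mean per gene, and leaving out a line or replicate, another normalisation and the count filter were not run for the same reason. The number of expressed members, Nicn1 and Tcta included, was 61 at a mean of at least 10. It was 72 at a mean of at least 1 and 60 with protein-coding genes only. It fell to 40 at a mean of at least 100 and to 32 of 40 members that start within 500 kb, as stricter or smaller sets must. The median of the centromeric flank, 58.9, became 193.1 at a mean of at least 10, 107.9 with protein-coding genes only, 31.2 within 500 kb and 17.0 per kilobase of exon. That of the telomeric flank, 277.4, became 546.1, 327.6, 810.0 and 60.9. The telomeric median was the higher under each of these 4 settings. Gene density was 42.5 per Mb within 500 kb and 37.5 for protein-coding genes. With pooled means, counting error and the spread between lines cannot be given.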
